A study of Rattus norvegicus with 8 samples.

Results

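Shaker potassium channels are the voltage-gated channels built from Kcna alpha subunits, with Kcnab beta subunits attached on the cytoplasmic side. They were followed here in hypothalamic tissue from adult male rats of the Long-Evans strain by counting the 3′ ends of polyadenylated RNA. Members were all protein-coding sites whose gene symbol begins with Kcna, which gave 42 of 73922 polyadenylation sites and 7 of 12255 genes. These were Kcna1, Kcna2, Kcna4, Kcna5, Kcna6, Kcnab1 and Kcnab2. Kcna3 and Kcnab3 were not analysed here. The genes were taken by name, but Kcna1 was chosen by its gene-level difference between the diets in these same libraries. Its values are therefore given as a description, without a p-value.

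The control group was 4 rats on standard rodent chow with 0.51 kcal/g from fat. The obesity group was 4 rats with free access to a complete high fat diet with 1.71 kcal/g from fat, and tissue was taken from both groups after 36 days. No body weight of any rat was used here, so obesity is the name of the diet group. Each rat gave 1 library, and libraries carry the numbers 1 to 4 in each group. What a shared number stands for is not stated in the labels. Values of a group are given below in the order of libraries 1 to 4.

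Shaker alpha subunits assemble in fours around a central pore, often as mixtures of different Kcna products. The channels open at voltages close to rest and limit repetitive firing, and in axons they lie beside the node of Ranvier and at presynaptic terminals. Kcna1, Kcna2 and Kcna6 products are the common neuronal subunits, Kcna4 makes a rapidly inactivating channel, and Kcna5 is better known from heart and vessels. Beta subunits are related to aldo-keto reductases. Kcnab1 products can close the pore quickly after opening, and Kcnab2 products help to bring the channels to the axon.

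The libraries held 1417531 to 1957726 reads. Of the 73922 sites, 14788 had no read in control library 1 and 10659 had none in obesity library 1. In the other libraries it was 4062 to 6622 sites. Of 14 hypothalamic marker genes 11 had a site, among them Avp, Oxt, Pomc and Hcrt. Some genes of neighbouring tissue were high in single libraries. Gh1 of the anterior pituitary had 87 reads in obesity library 2 and 0 or 1 elsewhere, and the choroid plexus gene Ttr was at 98.0 CPM in obesity library 4 against at most 1.52 CPM in control. Others were spread. The pituitary gene Cga was at 10.6 to 50.3 CPM in control and 0 to 41.6 CPM in obesity, with 8.93 CPM in obesity library 2. The measured thalamic markers had reads in every library.

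The 42 sites held 7853 reads in all, from 30 to 2666 reads a site, and 31 of them had fewer than 100 reads. Levels are given in CPM, the reads of a gene or site scaled to a common TMM-adjusted library size. A read was taken to mark the end of a transcript, so levels of different genes were compared without division by length. The sequence at the sites was not checked. Kcna6 was the most abundant member in all 8 libraries, with a mean of 317 ± 73.0 CPM (SD, n = 8), above 95.9% of all genes. Kcnab2 followed at 125 ± 30.5 CPM, Kcna1 at 115 ± 47.2 CPM and Kcna2 at 83.6 ± 60.2 CPM. The ranges of these 3 genes overlapped, so their order was not fixed. Kcnab1 had 36.9 ± 12.01 CPM, Kcna4 23.1 ± 7.78 CPM and Kcna5 4.31 ± 3.15 CPM (SD, n = 8). Kcna6 supplied 46.6% to 69.6% of alpha subunit reads in each library, and Kcna1 12.1% to 33.1%.

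**Figure D1:**
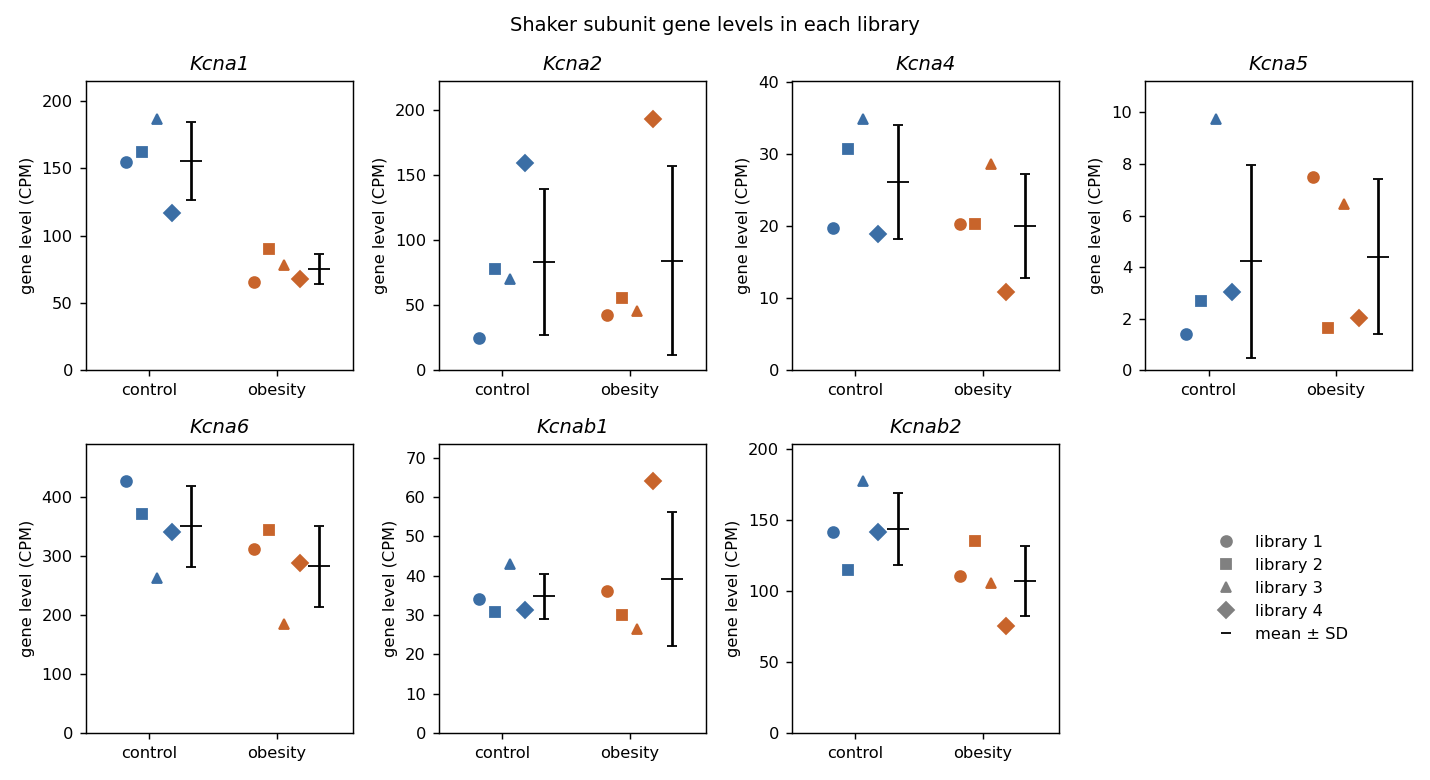
Gene level in CPM (vertical axes, each from 0) of 7 Shaker subunit genes in 4 control and 4 obesity libraries, with marker shapes for the library number and black bars for mean ± SD. Kcna1 is the gene whose groups do not overlap, at 117 to 187 CPM in control and 65.3 to 90.1 CPM in obesity, and Kcna2 stands highest in both libraries numbered 4.

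Kcna1 is the gene mutated in episodic ataxia with myokymia, and its product sets the threshold for firing in many axons. Control libraries had 219, 242, 230 and 154 Kcna1 reads, and obesity libraries had 87, 111, 134 and 100. The level was 155, 162, 187 and 117 CPM in control and 65.3, 90.1, 78.5 and 68.1 CPM in obesity. Every obesity library lay below every control library, which held for 1 of the 7 members and, in either direction, for 3.45% of all genes. That the level was lower in 4 of 4 same-numbered pairs follows from this lack of overlap. The group means were 155 ± 28.9 and 75.5 ± 11.3 CPM (SD, n = 4), so obesity stood at 48.6% of control, a log2 fold change of -1.04 (SE 0.23). Among all genes, 4.51% had a log2 fold change of -1 or less, and in 1.77% the groups did not overlap with obesity lower. Leaving out each library in turn gave log2 fold changes of -1.15 to -0.93, with -1.13 without obesity library 2 and -0.98 without obesity library 4.

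Kcna1 had 2 sites, both on the minus strand of chromosome 4 (Rnor_6.0) and 1260 bases apart. Site 1 (159190781 to 159190811) lay upstream and held 74.2% of the reads of the gene. Control libraries had 179, 161, 193 and 111 reads at it, and obesity libraries had 52, 83, 100 and 69. The groups did not overlap here or at site 2, as in 3.11% of all sites, with means of 102 ± 28.9 and 44.1 ± 12.5 CPM (SD, n = 4) and a log2 fold change of -1.21 (SE 0.35). Site 2 (159189535 to 159189547), the most 3′, had 40, 81, 37 and 43 reads in control and 35, 28, 34 and 31 in obesity. Its levels were 22.5 to 46.6 CPM in control and 17.2 to 19.8 CPM in obesity, a log2 fold change of -0.75 (SE 0.39). Both sites were thus lower, the upstream one by more. They are parts of the gene level by which Kcna1 was chosen, so their lack of overlap is no separate support for it. The share of site 1 among Kcna1 reads was 76.1% ± 8.18 in control against 69.5% ± 7.05 in obesity (SD, n = 4). Those shares overlapped, at 66.5% to 83.9% and 59.8% to 74.8%.

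**Figure D2:**
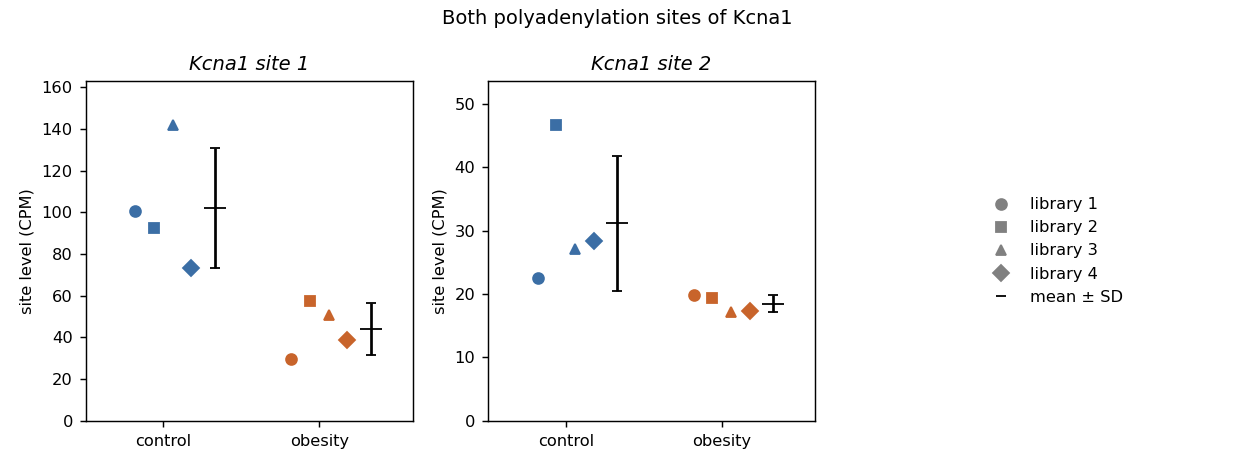
Level in CPM (vertical axes, each from 0) of the upstream site 1 and the most 3′ site 2 of Kcna1 in 4 control and 4 obesity libraries, with mean ± SD. The groups do not overlap at either site, with site 1 at 73.1 to 142 CPM in control and 29.4 to 57.5 CPM in obesity.

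In whole tissue, fewer cells of a type and less RNA per cell cannot be told apart. Summed levels of 12 oligodendrocyte markers, whose myelin borders the axon stretches that hold these channels, were 17628 to 23184 CPM in control and 13616 to 21371 CPM in obesity, with 10 of 12 genes lower. The 9 measured neuronal markers summed to 6815 to 9852 CPM in control and 5907 to 9031 CPM in obesity, with 6 of 9 lower. For 7 astrocyte markers the sums were 1901 to 2660 and 1501 to 2184 CPM, with 5 of 7 lower. The 11 measured hypothalamic markers summed to 1098 to 1534 and 869 to 1118 CPM, with 7 of 11 lower. Single genes made up most of some sums. Avp had means of 976 and 720 CPM in control and obesity, where the hypothalamic sums averaged 1297 and 1004 CPM. Mbp had 14631 and 13772 CPM, where the oligodendrocyte sums averaged 19362 and 17895 CPM. All of the marker sums overlapped between the groups. Within same-numbered pairs the hypothalamic sum was lower in obesity in 4 of 4, the neuronal and astrocyte sums in 3 of 4 and the oligodendrocyte sum in 2 of 4. Their part in the Kcna1 difference was not tested.

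Kcna6 lies upstream of Kcna1 on the same strand. The sites of Kcna5, Kcna1 and Kcna6 span 205.1 kb of chromosome 4, in that order of coordinates, with 61.7 kb between the sites of Kcna1 and Kcna6. Kcna6 levels were 427, 371, 263 and 341 CPM in control and 312, 344, 186 and 289 CPM in obesity. The groups overlapped, although the obesity library was lower in 4 of 4 pairs, and the libraries numbered 3 were lowest in both groups. The log2 fold change was -0.31 (SE 0.22, edgeR adjusted p = 0.942 over all genes). Kcna5, between 1.42 and 9.75 CPM, rested on 2 to 12 reads a library. At that depth the difference of 0.08 on the log2 scale (SE 0.91, adjusted p = 0.997 by edgeR) shows no direction.

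Kcna2 and Kcna4 encode the other alpha subunits measured. Kcna2 levels were 24.8, 77.6, 69.9 and 160 CPM in control and 42.8, 55.2, 45.7 and 193 CPM in obesity. Both libraries numbered 4 were far above the rest, and the groups overlapped. The log2 fold change was 0.02 (SE 0.62, edgeR adjusted p = 0.997), and it was -0.78 without obesity library 4 and 0.55 without control library 4. Kcna4 levels were 19.8, 30.8, 34.9 and 19.0 CPM in control and 20.3, 20.3, 28.7 and 10.9 CPM in obesity, and these overlapped as well (-0.38 on the log2 scale, SE 0.40, adjusted p = 0.968 by edgeR).

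Of the beta subunits, Kcnab2 was lower in 3 of 4 pairs. Its levels were 142, 115, 177 and 141 CPM in control and 110, 136, 105 and 75.5 CPM in obesity, with overlapping groups. The log2 fold change was -0.43 (SE 0.23, edgeR adjusted p = 0.921). Kcnab1 levels were 34.0, 30.8, 43.1 and 31.2 CPM in control and 36.1, 30.03, 26.4 and 64.0 CPM in obesity. Obesity library 4 stood above the rest, and the difference of 0.17 on the log2 scale (SE 0.34, adjusted p = 0.985 by edgeR) became -0.16 without it. Alpha subunit reads exceeded beta subunit reads 2.56-fold to 4.42-fold in control and 2.62-fold to 4.04-fold in obesity.

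Of the 6 members other than Kcna1, 0 passed an adjusted p of 0.1 by edgeR or by the DESeq2 Wald test, and 0 had an unadjusted p under 0.05 by edgeR. Over all 12255 genes 0 passed (0%), with 627 at an unadjusted p under 0.05 (5.12%), and the DESeq2 Wald test called 4 of 12222 (0.0327%). With the replicate number as a block, 34 genes passed (0.277%), and the 6 members again gave 0. In that fit Kcna6 and Kcnab2 had unadjusted p-values of 0.034 and 0.0335, with adjusted values of 0.399 and 0.398 (edgeR), where 10.9% of all genes were under 0.05. By log2 fold change 4 of 7 members were lower, but Kcna1 is among them and was chosen by this difference. Of the other 6, Kcna4, Kcna6 and Kcnab2 were lower and Kcna2, Kcna5 and Kcnab1 higher, where 49.9% of all genes were lower. The median log2 fold change of the 6 members other than Kcna1 was -0.14 and that of all genes 0.00.

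Outside Kcna1, 0 of 40 sites passed an adjusted p of 0.1 by edgeR, where 1 of all 73922 sites did (0.00135%). An unadjusted p under 0.05 was reached by 1 of the 40 sites and by 3.14% of all sites, and 0 passed by the DESeq2 Wald test. By log2 fold change 22 of the 40 sites were lower, against 47.6% of all sites. Use of sites within a gene could be tested in 5 members other than Kcna1. An adjusted p of 0.1 was passed by 0 of them, and by 0 of all 7996 genes (0%). At an unadjusted p under 0.05 there were 0 members and 1.39% of all genes (edgeR).

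The libraries of the same number, one on each diet, shared the use of single sites in several members. This was noticed in the data and is given as a description. In 6 of the 42 sites at least 80% of the normalized reads lay in the pair of libraries with the same number, as in 2.37% of all sites. All 6 belonged to alpha subunit genes, 3 to libraries 2 and 3 to libraries 4. Among sites with 100 or more reads, 3 of 11 member sites and 1.31% of all sites were of this kind. At a lower limit of 50%, 11 of the 42 member sites (26.2%) and 22.2% of all sites were concentrated. That limit was reached by 39.1% of alpha and 10.5% of beta subunit sites.

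The site of Kcna6 farthest upstream (chromosome 4, minus strand, 159281525 to 159281552) lay 29 kb from the most 3′ site. It had 104 reads in control library 2 and 85 in obesity library 2, and in the other libraries 0, 0 and 3 in control and 0, 1 and 6 in obesity. That was 18.7% of Kcna6 reads in control library 2 (95% interval 15.7% to 22.2%) and 20.05% in obesity library 2 (16.5% to 24.1%), against at most 1.41% elsewhere. Its level was 59.8 and 58.9 CPM in those libraries, which is 1 library on each diet. The main site of Kcna6, site 6 (159253932 to 159253961), held 75.9% of all reads of the gene and 60.7% and 62.7% in libraries 2, against 72.2% to 85.1% elsewhere. Site 2 (159272814 to 159272822), with 13.4% of Kcna6 reads, had 65, 91, 40 and 60 reads in control and 44, 57, 77 and 35 in obesity. A further Kcna6 site (159262463 to 159262465) had 16 and 35 reads in libraries 4 and 0 to 3 in the others.

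In Kcna2, on the plus strand of chromosome 2, 2 of 9 sites were concentrated in libraries 4. Site 1 (209843113 to 209843157) had 112 and 156 reads in control and obesity library 4 and 1 to 19 in the others. Site 5 (209848313 to 209848326) had 64 and 95 reads there and 0 to 4 in the others. Together they made up 83.8% and 88.4% of Kcna2 reads in libraries 4, against 1.47% to 25.6% in the rest. The other 7 sites summed to 22.4 and 18.5 CPM in control and obesity library 4, within or below the 18.6 to 59.3 CPM of the remaining libraries. The high Kcna2 level of libraries 4 thus lay in these 2 sites. Site 6 (209849506 to 209849519) was present in every library, with 22 to 38 reads on chow and 11 to 34 on the high fat diet. Site 2 (209843186 to 209843203) had 23 and 10 reads in libraries 2 and at most 1 elsewhere.

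Kcna4, on the plus strand of chromosome 3, changed its leading site in libraries 2. Site 2 (98299503 to 98299526) held 69.8% to 85.2% of Kcna4 reads in libraries 1, 3 and 4 of both groups. In control library 2 it held 19.6% (95% interval 10.7% to 33.2%) and in obesity library 2 4.0% (0.71% to 19.5%). Site 1 (98298003 to 98298009) had 17 and 14 reads in libraries 2 and 0 in the other 6, where a count of 0 allows 6.12% to 18.8% of gene reads. Site 3 (98299841 to 98299861), which held 11.6% of all Kcna4 reads, had 12 and 9 reads in libraries 2 and 0 to 3 elsewhere. The most 3′ site 4 (98301199 to 98301210) had 1 to 10 reads in each library.

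**Figure D3:**
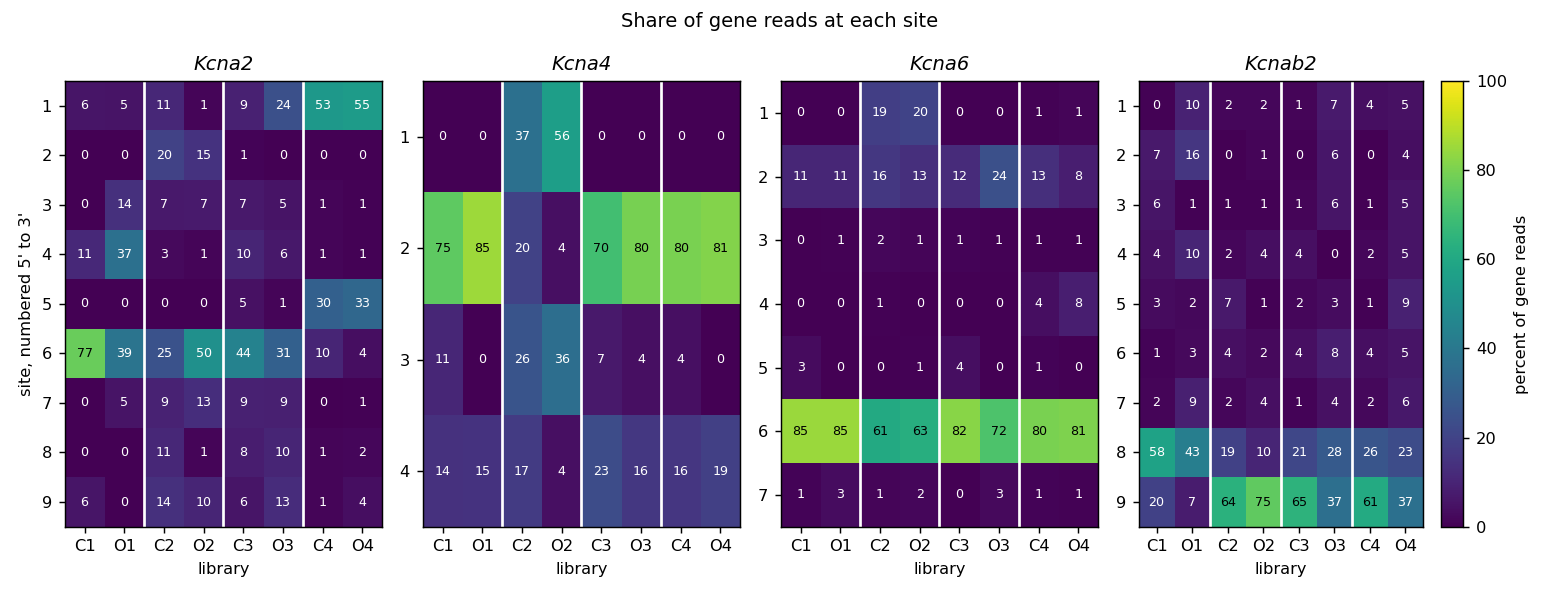
Percent of the reads of a gene (colour and printed number) at each site of Kcna2, Kcna4, Kcna6 and Kcnab2, with sites numbered 5′ to 3′ down the vertical axis and control (C) and obesity (O) libraries of the same number side by side. Site 1 of Kcna4 and of Kcna6 appears in the libraries numbered 2, and sites 1 and 5 of Kcna2 in those numbered 4.

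Kcnab2, on the minus strand of chromosome 5, showed a shift of proportion in libraries 1. Libraries 1 were also those with the most sites without a read. The most 3′ site 9 (169570325 to 169570338) had 39, 110, 141 and 114 reads in control and 11, 126, 66 and 41 in obesity. Site 8 (169571296 to 169571306), 977 bases upstream, had 115, 33, 46 and 49 reads in control and 63, 17, 51 and 26 in obesity. Site 9 exceeded site 8 in libraries 2, 3 and 4 of both groups, by 1.29-fold to 7.41-fold, and in libraries 1 it had 0.34 and 0.17 times the reads of site 8. None of the 19 beta subunit sites reached 80% in 1 library number. Kcnab1 spread its reads over 9 sites along 231 kb of chromosome 2, with 7.52% to 15.5% of gene reads at each when the libraries were pooled. The leading site differed between libraries, with 35.4% at site 9 in control library 1, 50% at site 6 in obesity library 1, 33.3% at site 7 in obesity library 3 and 30.9% at site 4 in obesity library 4. The most 3′ site 9 (155962862 to 155962888) had the most pooled reads, ranging over 6 to 17 reads on chow and over 4 to 9 on the high fat diet. Sites 2, 3, 4, 6 and 7 of Kcnab1, with 10.4% to 13.8% of gene reads each, had 0 to 29 reads a library.

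Genes that act with these channels were read from the same fit. Of 15 genes whose products cluster or modulate Shaker channels 0 passed an adjusted p of 0.1 (edgeR), 7 were lower and 8 higher, and the median log2 fold change was 0.04. Cntnap2, which holds Shaker channels beside the node, was higher in 4 of 4 pairs, at 1385 ± 185 and 1760 ± 228 CPM (SD, n = 4, log2 fold change 0.35, SE 0.18, edgeR adjusted p = 0.921). Adam11, of the family that binds Lgi proteins at synapses, lay at 305 to 421 CPM in control and 257 to 292 CPM in obesity (log2 fold change -0.37, SE 0.19, adjusted p = 0.921 by edgeR). It was the only gene of these 15 without overlap, as in 3.45% of all genes. Cntnap2 and Adam11 were chosen after their values were seen.

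Among 12 genes of the node and the axon initial segment 0 passed (edgeR), with 4 lower and 8 higher and a median of 0.12. Of 12 measured genes for other voltage-gated potassium alpha subunits 0 passed, 5 were lower and 7 higher, and the median was 0.11. Kcnb2, a delayed rectifier, went from 248 ± 21.7 to 351 ± 66.7 CPM (SD, n = 4) and was higher in 4 of 4 pairs, although the groups overlapped (0.50 on the log2 scale, SE 0.20, adjusted p = 0.921 by edgeR). Kcnh1 of the ether-à-go-go family went from 31.3 ± 7.85 to 50.002 ± 12.3 CPM, also with overlap (0.67 on the log2 scale, SE 0.32, adjusted p = 0.921 by edgeR). The only gene of this list without overlap was Kcns2, as in 3.45% of all genes. It was lower, at 21.0 ± 2.85 and 14.3 ± 2.10 CPM (SD, n = 4, log2 fold change -0.55, SE 0.39, edgeR adjusted p = 0.942). Kcns2 was picked after its values were seen.

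**Figure D4:**
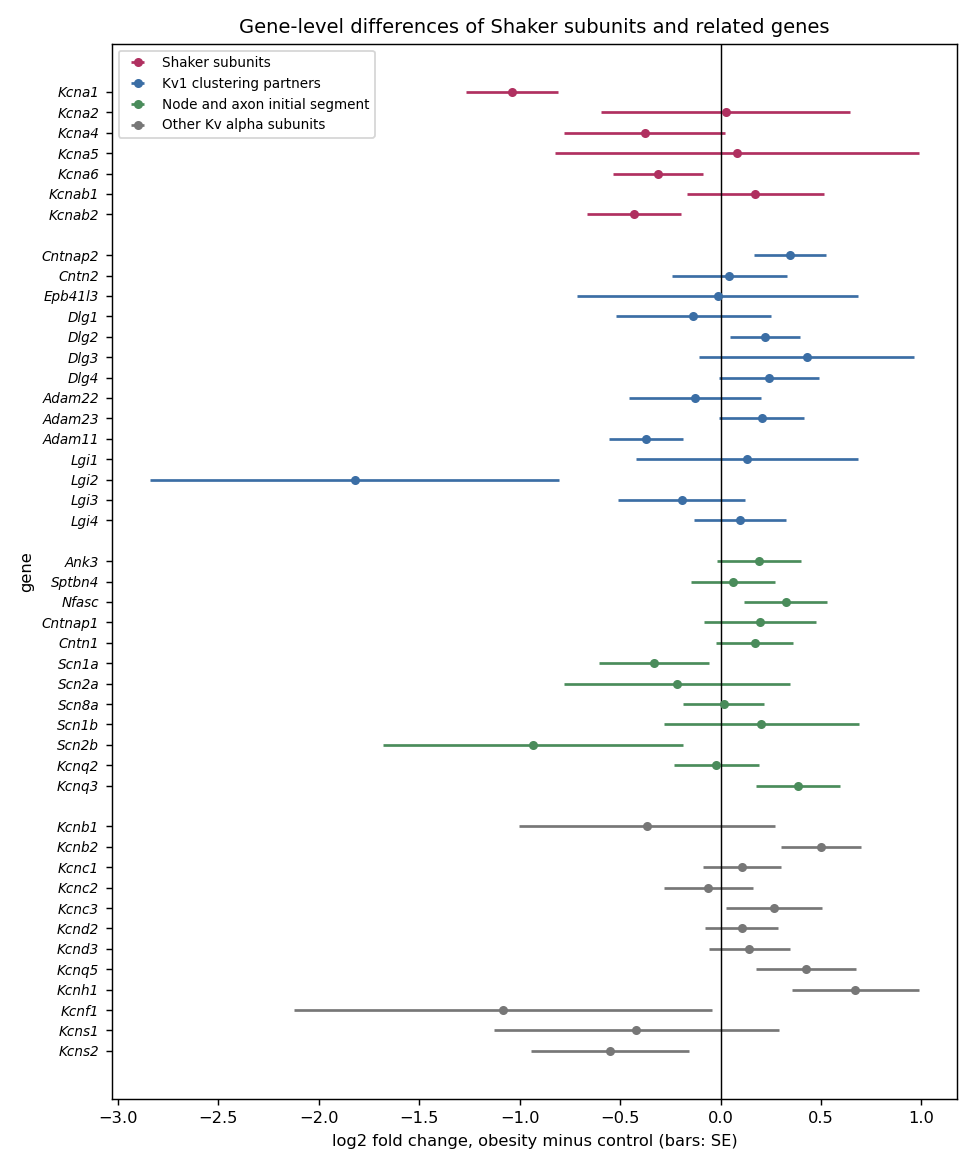
Gene-level log2 fold change, obesity minus control, with SE bars (horizontal axis), for 7 Shaker subunit genes and the plotted genes of 3 related lists. Kcna1, chosen by its difference, stands at -1.04, and the medians of the 3 lists are 0.04, 0.12 and 0.11. Single plotted genes of the lists range from -1.82 (Lgi2) to 0.67 (Kcnh1), with Kcnf1 at -1.08.

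Kcna1 was compared with the 6137 other genes of at least 20 CPM by Pearson's r of log2(CPM + 1) over the 8 libraries, without a test. The 5 most like it were Elfn2 (r = 0.96), Asna1 (0.946), Ifi27 (0.944), Psmd11 (0.93) and Smim15 (0.93). This r carries the group difference for which Kcna1 was chosen. After each group mean was subtracted, the 5 most like it were Fam177a1 (0.962), Arrb2 (0.96), Prrc2b (0.948), Sec63 (0.947) and Dynlrb1 (0.937). Among the members, r over the 8 libraries was 0.735 for Kcnab2, 0.6 for Kcna4, 0.382 for Kcna6, -0.158 for Kcna2 and -0.165 for Kcnab1. With the group means subtracted it was 0.48 for Kcnab2, 0.608 for Kcna4, -0.173 for Kcna6, -0.425 for Kcna2 and -0.122 for Kcnab1.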

How the data were processed

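Hypothalamic RNA of 8 rats was profiled by whole transcriptome termini site sequencing, with 4 libraries a group. The deposited values were raw read counts per polyadenylation site on Rnor_6.0, without normalization. The submitters' processing notes name Bowtie2 2.2.3. The clustering of reads into sites is not given in the sources used here. Every site had at least 30 reads over the 8 libraries, so the minimum of 16 reads removed 0 of 73922 sites. A line without a site, holding the total of control library 1 (1710888 reads), was left out. A paper that names this series describes another exposure, so groups were taken from the labels.

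Sites were assigned to genes as deposited, and gene counts were sums over the sites on the strand with most reads of the gene. Differences in counts were tested in edgeR 4.0.16 (R 4.3.3) by its robust quasi-likelihood model with TMM scaling, over 12255 genes or 73922 sites, with Benjamini-Hochberg adjustment and a threshold of 0.1. Site usage was tested with diffSpliceDGE over 7996 genes. Alternatives were a replicate block, filterByExpr, DESeq2 1.42.0 size factors, its Wald test, sums over both strands, and each library left out. Gene sums without sites that had at least 50% of their normalized reads in 1 replicate number were added after the data were seen. The scripts were tested on simulated data.

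To check the pairing, each library's log2(CPM + 1) was centred on its group. Same-numbered libraries then correlated at 0.218 to 0.32, each of the 4 pairs above 0.1, and others at -0.168 to 0.041. On this basis numbers were treated as pairs in the counts of pairs and in the replicate block. The edgeR tests given without the block, and the DESeq2 Wald test, left the number out, so their p-values are unpaired. With the block the edgeR adjusted p was 0.285 for Cntnap2, 0.355 for Adam11, 0.197 for Kcnb2, 0.397 for Kcnh1 and 0.693 for Kcns2. The smallest among the partner genes was 0.103 for Scn2b of the node list, which was lower (log2 fold change -0.85 with the block). Scn2b was picked after its values were seen.

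Named were all members, the site with most reads of each, sites with at least 10% of the reads of their gene, partner genes with an unadjusted p under 0.05, and the 5 genes most like Kcna1 by Pearson r among genes of at least 20 CPM. Some genes of the lists are not reported here. The members and lists were chosen with earlier results of these data known. The series' design names 8 rats as sources, so p-values measure the spread between single libraries of different rats. Intervals are 95% Wilson intervals and limits at 0 are 3 reads. Reads without molecular identifiers are not independent molecules, so both cover counting error only.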

Additional observations from a re-analysis of the deposited data

Results flagged for a closer look

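Among 56 checks of member gene levels, sums of subunit levels and shares of sites, 10 found a library far from the other 3 of its group by Dixon's test, where chance alone gives about 2.8. The shares of sites in a gene are not independent of each other. The gene level of Kcna2 was 193 CPM in obesity library 4, against 42.8 to 55.2 CPM in the other obesity libraries. Site 1 of Kcna2 held 53.3% of gene reads in control library 4, against 5.71% to 11.2%. Site 5 of Kcna2 held 30.5% in control library 4, against 0% to 4.65%, and 33.5% in obesity library 4, against 0% to 1.28%.

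Site 1 of Kcna4 held 37.0% in control library 2 and 56.0% in obesity library 2, against 0% in the others. Site 2 of Kcna4 held 19.6% in control library 2, against 69.8% to 80%, and 4.0% in obesity library 2, against 79.6% to 85.2%. Site 3 of Kcna4 held 36.0% in obesity library 2, against 0% to 4.08%. Site 9 of Kcnab2 held 19.5% in control library 1, against 61.3% to 64.7%. What the libraries of a number share was not tested.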

How the results depend on the processing

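The Kcna1 log2 fold change stayed between -1.15 and -0.93 in 14 alternatives, within the spread between libraries. These alternatives reuse the libraries in which Kcna1 was chosen, so they are no independent check of it. Of the 6 genes other than Kcna1, 0 passed in any of the 14 alternatives. Calls among all genes were 34 with the block, 4 by the DESeq2 Wald test and 0 to 1 with a library left out. Among all sites they were 4 with the block, 10 by the DESeq2 Wald test, 0 with filterByExpr and 0 to 1 with a library left out. Site usage gave 1 gene with the block. No other call changed with the block.

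Some signs changed. For Kcna2 the log2 fold change was -0.031 with the block and -0.78 to 0.55 with a library left out. Without sites that had at least 50% of their reads in 1 number it was -0.19. Site 1 of Kcna2 gave -0.12 with the block and -2.40 to 2.34 with a library left out. Kcna5 ranged from -0.28 to 0.88, Kcnab1 from -0.16 to 0.33 and site 2 of Kcna4, at -0.34 as reported, from -0.87 to 0.042 with a library left out. The Kcna5 site was -0.024 as reported, 0.023 with the block and by the DESeq2 Wald test, 0.019 with DESeq2 size factors, and -0.34 to 0.83 with a library left out. The cause was not tested. Most sites had under 100 reads, which limits single-site values, and filterByExpr left Kcna5 without a value.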

Other observations

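A pair of sites outside the naming rule were looked at after their values were seen. Site 5 of Kcna6 (chromosome 4, minus strand, 159254024 to 159254043) lay next to the main site and had 18, 2, 12 and 4 reads in control and 1, 3, 0 and 0 in obesity. Its log2 fold change was -3.06 (SE 1.20, adjusted p = 1.00 by edgeR), and the groups overlapped. Site 7 of Kcnab2 (chromosome 5, minus strand, 169571667 to 169571704) had 3, 3, 2 and 4 reads in control and 13, 7, 8 and 7 in obesity. The groups did not overlap there, as in 3.11% of all sites, and the difference was 1.39 on the log2 scale (SE 0.79, adjusted p = 1.00 by edgeR).

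The 1 Kcnab1 site not on the main strand was on the minus strand of chromosome 2 (155968043 to 155968083). It had 0, 4, 1 and 1 reads in control and 6, 7, 4 and 7 in obesity, and it was left out of the gene sum. With it included the log2 fold change of Kcnab1 was 0.28. Its assignment to Kcnab1 is uncertain.

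Of the marker lists not described above, 4 of 7 microglia genes had a site and summed to 83.6 to 124 CPM in control and 41.3 to 96.6 CPM in obesity. The 4 endothelial genes summed to 49.5 to 87.1 and 47.1 to 113 CPM, and 4 of 5 thalamic genes to 378 to 527 and 257 to 468 CPM. The 3 anterior pituitary genes with a site summed to 17.9 to 56.0 CPM in control and 6.13 to 127 CPM in obesity.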
